A study of Mus musculus with 34 samples.

Results

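Epiblast stem cells (EpiSC) of the mouse strain WSB/EiJ were compared with those of C57BL/6J by RNA sequencing. The comparison took every EpiSC library whose label names one of the 2 strains: 2 WSB/EiJ lines (AC627 and AC635) and 5 C57BL/6J lines (1, 2, 4, 5-1 and 44), which are 7 of the 17 EpiSC libraries and 7 of the 34 libraries in all. The study measured EpiSC of several mouse strains and the definitive endoderm (DE) made from such lines, sorted after 40 h on magnetic beads for the surface receptor CXCR4. Beside these 7 lines, EpiSC came from NOD/ShiLtJ, NZO/HiLtJ and CAST/EiJ (2 lines each), PWK/PhJ (3 lines) and DBA/2J (1 line). The EpiSC of both strains grew on a feeder layer of irradiated mouse embryonic fibroblasts, in N2B27 medium with FGF at 12.5 ng/mL, activin A at 20 ng/mL and the tankyrase inhibitor NVP-TNKS656 at 175 nM, so both groups carried the same agents. Each library is 1 cell line, no genetic change is labelled beyond the strain, and the labels do not say from how many animals the lines came. WSB/EiJ lines are named AC and a number and C57BL/6J lines by number alone, so any difference in the origin or handling of these series cannot be told apart from strain.

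EpiSC hold the primed pluripotent state of the epiblast after implantation. They depend on activin and FGF, express Pou5f1 and Nanog together with epiblast genes such as Fgf5 and Otx2, keep E-cadherin junctions as an epithelium does, and lack most of the naive network of embryonic stem cells. WSB/EiJ is a wild-derived strain of Mus musculus domesticus and C57BL/6J is the strain of the reference genome, so many sites differ between them in genes, in regulatory sequence and in copy number.

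The values are counts of reads per gene, and the levels below are CPM, the usual counts scaled to library size (here with TMM factors), which are not divided by gene length. The 7 libraries held 26147002 to 31137472 counts. Reads of every strain were aligned to mm10, the C57BL/6J reference, so a loss of reads at sites that differ from the reference cannot be told apart from lower expression, and values of genes with near-identical copies are uncertain. WSB/EiJ lines are given in the order AC627 and AC635, and C57BL/6J lines in the order 1, 2, 4, 5-1 and 44. Folds are log2 values of WSB/EiJ minus C57BL/6J with their standard error (SE), and adjusted p-values are from edgeR's quasi-likelihood test on all 17 EpiSC libraries with Benjamini-Hochberg adjustment. A gene is called where the adjusted p is under 0.05.

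The lines of both strains carried the markers of EpiSC. Pou5f1, the central pluripotency factor, stood at 596 and 573 CPM in the WSB/EiJ lines and at 473 to 679 CPM in the C57BL/6J lines, with a fold of 0.06 ± 0.14. Nanog stood at 69.9 and 119 against 44.2 to 174 CPM, Otx2 at 130.0 and 121 against 131 to 214 CPM, Fgf5 at 205 and 262 against 171 to 293 CPM, and the de novo methyltransferase gene Dnmt3b at 977 and 1188 against 1151 to 2014 CPM, and none of these was called. The endoderm factor Sox17 was low in both strains (6.68 and 6.61 against 0.706 to 10.7 CPM). Sox2 is the exception among the markers and is described below. RNA of fibroblast marker genes was present in unequal amounts, and whether it came from the feeder layer cannot be told here. The 16 fibroblast markers summed to 1073 and 2588 CPM in WSB/EiJ and to 135, 1531, 634, 3442 and 1503 CPM in C57BL/6J. The groups overlapped, and 0 of the 16 were called. Y-linked genes were at 224 and 206.5 CPM in sum in WSB/EiJ, at 216 and 183 in C57BL/6J lines 1 and 5-1, and at 101, 109 and 41.4 in lines 2, 4 and 44.

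WSB/EiJ EpiSC differed from C57BL/6J EpiSC in 1339 of 18599 genes tested (7.2%). Of these, 635 were higher in WSB/EiJ (3.41% of the genes tested) and 704 were lower (3.79%), and the median fold of all genes tested was -0.02. At least a 2-fold difference was seen for 427 genes higher and 373 lower in WSB/EiJ. Among called genes 1330 had no overlap between the 2 and the 5 libraries, a pattern that 20.9% of all genes tested show. For 239 called genes both WSB/EiJ lines lay above all 15 other EpiSC libraries, and for 201 they lay below all of them. For 82 called genes the C57BL/6J lines lay above all other libraries, and for 34 they lay below them. Among all 18599 genes tested these 4 patterns were seen for 457, 337, 125 and 63 genes, in the same order. The count rests on both WSB/EiJ lines: without AC627 it was 524 and without AC635 it was 556, of which 505 and 537 were among the 1339. In a fit of the 7 libraries alone 524 genes were called.

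**Figure D1:**
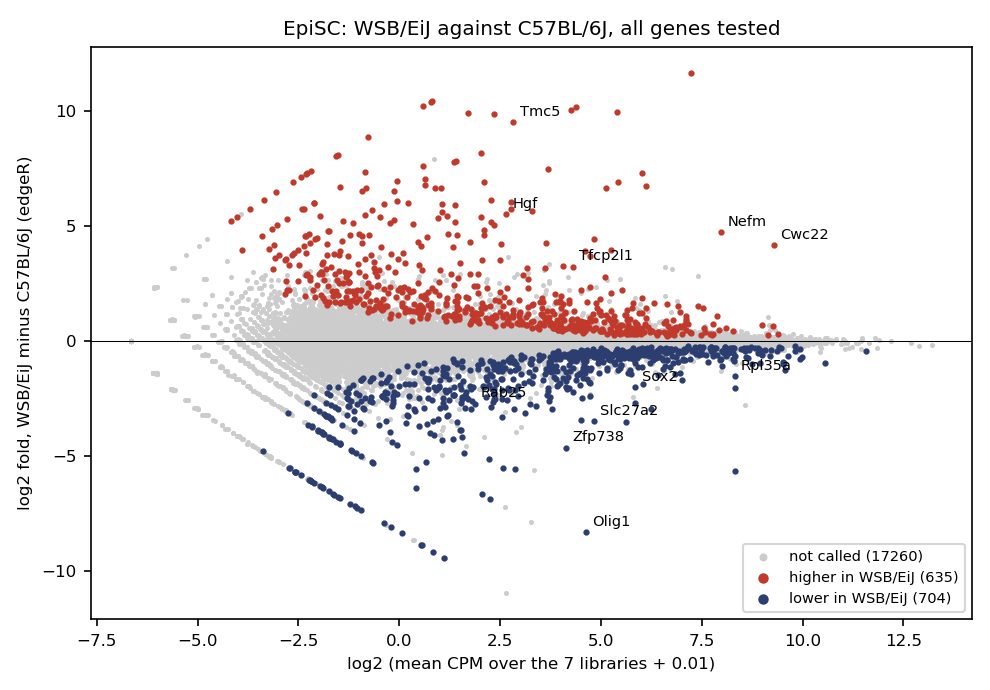
Each point is 1 of the 18599 genes tested in EpiSC, with the log2 of its mean CPM over the 7 libraries plus a small offset on the horizontal axis and the log2 fold of WSB/EiJ minus C57BL/6J from edgeR on the vertical axis. Red points are the 635 genes called higher in WSB/EiJ and blue points the 704 called lower; Nefm and Cwc22 combine a high level with folds over 4, and the diagonal streaks at the left are genes with few counts.

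Genes that were near silent in C57BL/6J EpiSC were clearly present in WSB/EiJ EpiSC. The largest rise among the ranked genes, which leave out pseudogenes, predicted genes and clone names, was that of Tmc5, a gene of the transmembrane channel-like family (chromosome 7, 118597297 to 118675086, plus strand). Tmc5 stood at 25.9 and 23.7 CPM in the WSB/EiJ lines and at 0, 0, 0.0365, 0.112 and 0 CPM in the C57BL/6J lines. Its summed counts were 1387 against 4, and the 10 libraries of other strains held 23 counts. The fold was 9.53 ± 0.54 (adjusted p = 1.29e-07). Hgf, the hepatocyte growth factor that signals through the Met receptor, stood at 23.1 and 18.7 CPM against 0.151, 0.468, 0.219, 0.892 and 0.517 CPM, a fold of 5.52 ± 0.61 (adjusted p = 6.26e-05). In every other strain Hgf was at most 1.76 CPM.

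Nefm, the medium neurofilament chain, was the third in this ranking. It was at 909 and 702 CPM in WSB/EiJ and at 29.6, 13.8, 31.5, 52.3 and 24.6 CPM in C57BL/6J, and the fold was 4.73 ± 0.32 (adjusted p = 1.36e-06). Other strains ranged from 38.04 to 494 CPM with a median of 82.4, all below both WSB/EiJ lines. The light chain gene Nefl stood at 342 and 333 against 70.6, 196, 71.8, 177 and 108 CPM, a fold of 1.44 ± 0.33 (adjusted p = 0.0201), which was not called when either WSB/EiJ line was left out. The models of Nefm (chromosome 14, 68082590 to 68124846, minus strand) and Nefl (chromosome 14, 68083863 to 68089095, plus strand) overlap on opposite strands in GENCODE M21. Whether the counting used strand is not given in the sources used here, so reads of the pair cannot be told apart in the stretch they share.

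Cwc22, a splicing factor that also loads the exon junction complex, was the most abundant of the ranked genes that rose. It stood at 2065 and 1767 CPM in WSB/EiJ and at 110.0, 112, 95.95, 105 and 107 CPM in C57BL/6J, a fold of 4.18 ± 0.07 (adjusted p = 1.29e-13). Both WSB/EiJ lines were far above the 15 other libraries, whose highest was 119 CPM. Cwc22 (chromosome 2, 77881159 to 77946375, minus strand) lies in a segment known to vary in copy number between mouse strains, and reads of such copies cannot be told apart here.

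Kitl, Slc12a5 and Bsn were low in C57BL/6J EpiSC and rose in WSB/EiJ. Kitl, the ligand of the Kit receptor, was at 42.2 and 50.5 CPM against 1.92, 4.64, 3.54, 8.14 and 5.62 CPM (fold 3.28 ± 0.45, adjusted p = 5.67e-04). Slc12a5, the neuronal potassium chloride cotransporter, was at 36.5 and 30.9 CPM against 3.00 to 4.35 CPM (fold 3.15 ± 0.20, adjusted p = 1.80e-07). Bsn, the presynaptic scaffold Bassoon, was at 14.4 and 6.48 CPM against 0.39 to 0.877 CPM, a fold of 4.29 ± 0.46. These 3 genes were above every other EpiSC library in both WSB/EiJ lines. The last of the 10 largest rises were Rbm12b1 (fold 3.39), which encodes an RNA-binding protein, and Amd2 (fold 2.92), an S-adenosylmethionine decarboxylase gene. Both have close copies and are uncertain.

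Tfcp2l1 is the 1 naive pluripotency gene that was called. This transcription factor sustains self-renewal of naive embryonic stem cells. It stood at 62.1 and 46.6 CPM in WSB/EiJ and at 9.15, 3.47, 7.82, 4.20 and 4.27 CPM in C57BL/6J, a fold of 3.23 ± 0.34 (adjusted p = 4.35e-05), and other strains ranged from 2.58 to 9.77 CPM. The list of naive genes held 14 members, of which 9 could be tested, and 1 rose, 0 fell and 8 were not called. Zfp42, Prdm14, Nr0b1, Dppa3 and Tcl1 were too low to test. The median fold of the 9 was -0.02, equal to that of all genes tested.

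The largest fall among the ranked genes was that of Olig1, a transcription factor of the oligodendrocyte lineage (chromosome 16, 91269772 to 91271933, plus strand). Olig1 stood at 0.0764 and 0.134 CPM in WSB/EiJ and at 37.8, 33.5, 51.04, 47.7 and 3.72 CPM in C57BL/6J, where line 44 was far below the other lines. Summed counts were 6 against 4657, a fold of -8.29 ± 1.22 (adjusted p = 0.00108). The 10 libraries of other strains held 53 counts in all, so it was C57BL/6J that stood apart, and against 4 other strains the WSB/EiJ fold was -0.25 ± 1.51. Olig2, its neighbour, had 0 counts in WSB/EiJ and 402 in C57BL/6J (0.828, 3.12, 4.20, 6.39 and 0.42 CPM). Set against a floor of 3 counts over both WSB/EiJ libraries, Olig2 was at least 55.5-fold lower (adjusted p = 0.0129), and when either WSB/EiJ line was left out it was not called.

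Zfp738, Slc27a2, Tnk1 and Pla2g16 were lower in both WSB/EiJ lines than in all 15 other EpiSC libraries. Zfp738, a KRAB zinc finger gene (chromosome 13, 67658685 to 67687071, minus strand), stood at 0.84 and 1.10 CPM against 27.8, 25.7, 17.2, 23.3 and 26.9 CPM, a fold of -4.63 ± 0.26 (adjusted p = 5.22e-08). The lowest of the 10 libraries of other strains was at 12.5 CPM. Slc27a2, which encodes a long-chain fatty acid transporter and acyl-CoA synthetase, stood at 3.28 and 3.57 CPM against 42.2, 35.3, 20.6, 47.7 and 45.1 CPM, a fold of -3.48 ± 0.37 (adjusted p = 5.46e-05). The non-receptor tyrosine kinase gene Tnk1 stood at 1.34 and 1.37 against 8.40 to 19.7 CPM (fold -3.11), and the phospholipase gene Pla2g16 at 0.916 and 1.57 against 8.51 to 10.1 CPM (fold -2.93).

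For Gbp2 and Unc45b all C57BL/6J lines lay above every other EpiSC library. Gbp2, an interferon-induced GTPase, was at 4.96 and 6.88 CPM in WSB/EiJ, at 111, 26.3, 105, 27.9 and 65.2 CPM in C57BL/6J and at 3.88 to 19.6 CPM in other strains, with a fold of -3.50 ± 0.64 (adjusted p = 0.00497). Unc45b, a myosin chaperone, was at 1.83 and 1.94 against 7.69 to 24.1 CPM (fold -2.74), with other strains at 0.0342 to 4.61 CPM. Slc35d3, a nucleotide sugar transporter gene, had a fold of -3.42, and other strains spanned 0.478 to 51.6 CPM. Dynlt1a, a dynein light chain gene with near-identical copies, had a fold of -5.50 and is uncertain. Gbp2 and Unc45b were not called when either WSB/EiJ line was left out.

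**Figure D2:**
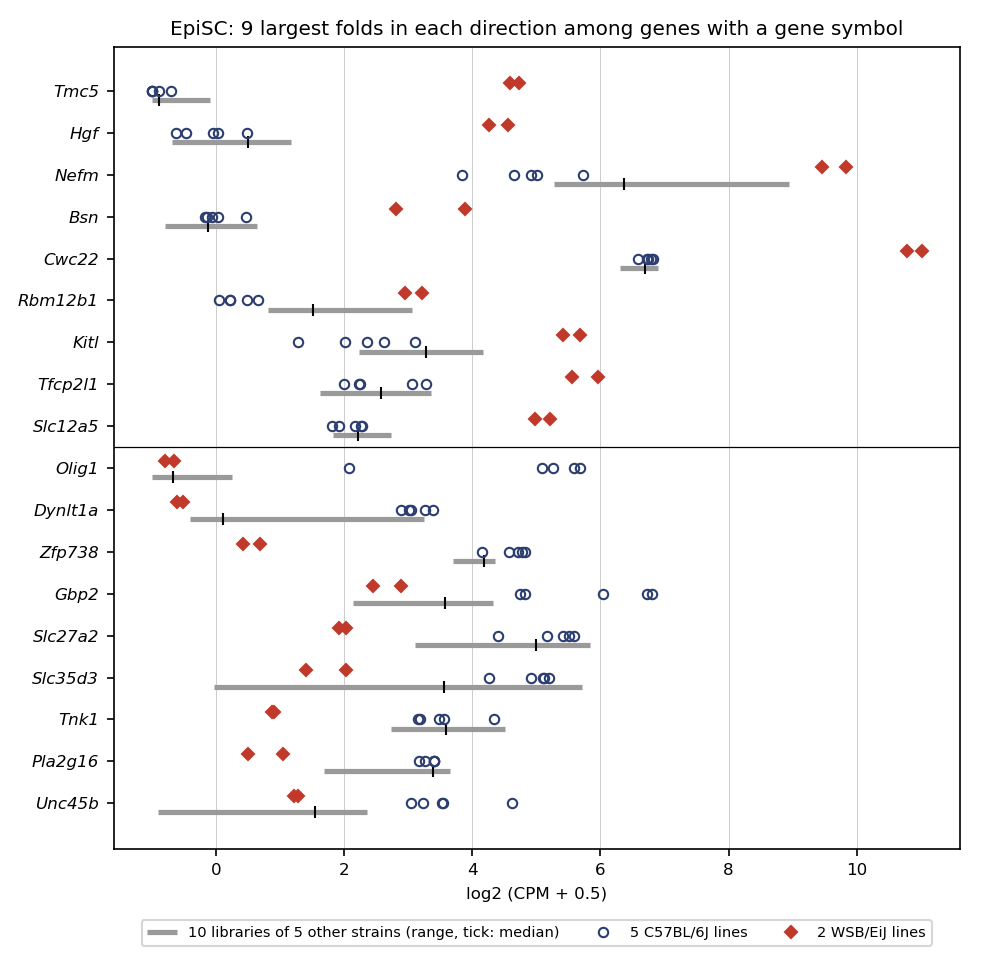
Level of each gene as log2 of CPM plus 0.5, with the 9 largest folds higher in WSB/EiJ above the line and the 9 largest lower below it, among called genes with a gene symbol and at least 8 CPM in the higher group. Red diamonds are the 2 WSB/EiJ lines, open circles the 5 C57BL/6J lines, and grey bars the range and median of 10 libraries of 5 other strains; no gene has overlap of the 2 strains, because the ranking required it, and for Olig1 the grey bar lies with WSB/EiJ.

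Against the mean of NOD/ShiLtJ, NZO/HiLtJ, PWK/PhJ and CAST/EiJ, without C57BL/6J in the contrast, WSB/EiJ differed in 2011 of 18599 genes (10.8%), 1240 higher and 771 lower. The 2 comparisons share the WSB/EiJ libraries, so their folds are set side by side only. Tmc5 had 9.53 against C57BL/6J and 9.64 against the 4 strains, Bsn 4.29 and 4.67, Hgf 5.52 and 4.44, and Tfcp2l1 3.23 and 3.43. Tcp11l1 joined this group, with 99.5 and 76.1 CPM in WSB/EiJ, 8.59 to 16.6 CPM in C57BL/6J and 8.09 to 11.4 CPM in other strains (folds 2.79 and 3.11). Zfp738 had -4.63 and -4.12 and Slc27a2 -3.48 and -3.26. Without AC627 the count against the 4 strains was 589, and without AC635 it was 1021.

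Several epithelial genes were lower in WSB/EiJ EpiSC. The 14 epithelial genes listed were tested, and 0 rose, 6 fell and 8 were not called, against a background of 3.79% lower among all genes tested. The list was chosen with earlier results of these data known, so its counts and median are a description and no test of the set. The median fold of the 14 was -1.18, where that of all genes tested was -0.02, and 0 of the 14 had a fold above 0. The genes that fell encode surface and junction proteins (Epcam, Cldn6, Cldn7), a polarity protein (Crb3) and epithelial regulators (Grhl2, Esrp1). Rab25, a small GTPase of recycling in epithelial cells that was not on the list but was ranked among the largest falls against the 4 strains, is described with them.

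The stretches before the start sites of 3 of these genes, each with a match, are shown because a short E-box recurs in the set. The 250 bases before each RefSeq start site (GRCm38.p6, the C57BL/6J reference) were searched on both strands, and 10 of the 14 listed genes matched the table. The letters searched were CACCTG, the E-box bound by repressors of epithelial genes such as Zeb1 and Snai1, and AACNGGTT, a grainyhead motif. CACCTG was found in 9 of their 13 windows, against 17.2% of all 32851 windows of this length; the 2 windows of Crb3 overlap and hold the same 3 matches, so these count double. By gene, 8 of the 10 held it, and Cldn3 and Tjp1 did not. The 17.2% is a share of windows and is no background for this count by gene. Of the genes that fell, Epcam, Cldn6, Cldn7 and Crb3 had a window, and each held it. Cldn4, Krt8, Krt18 and Ocln, which were not called, held it too, so it does not set apart the genes that fell. The matches of Cldn6 and Cldn7 lie past the start of a GENCODE M21 exon. AACNGGTT was found in 0 of the 10 genes and in 1.79% of all windows, and Rab25 holds 1 match. A match is a description of these letters, not a binding site or a cause. The sequences run 5' to 3' on the strand of the gene, stop before the first GENCODE M21 exon that their window touches, and have complete matches in capitals. That of Crb3 lies inside the longer gene model, before the start of a shorter transcript. They are chr17:87635729-87635978, plus strand (Epcam), chr17:57061951-57062140, plus strand (Crb3) and chr3:88548301-88548529, minus strand (Rab25, where AACCTGTT is the grainyhead match).
Epcam: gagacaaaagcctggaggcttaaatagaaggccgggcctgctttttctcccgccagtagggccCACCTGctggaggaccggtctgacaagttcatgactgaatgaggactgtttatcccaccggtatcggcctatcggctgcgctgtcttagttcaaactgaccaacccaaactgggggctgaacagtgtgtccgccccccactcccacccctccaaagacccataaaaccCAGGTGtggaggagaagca
Crb3: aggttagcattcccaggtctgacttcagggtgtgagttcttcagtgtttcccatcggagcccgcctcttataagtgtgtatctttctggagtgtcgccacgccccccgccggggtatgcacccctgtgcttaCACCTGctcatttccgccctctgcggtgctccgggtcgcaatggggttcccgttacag
Rab25: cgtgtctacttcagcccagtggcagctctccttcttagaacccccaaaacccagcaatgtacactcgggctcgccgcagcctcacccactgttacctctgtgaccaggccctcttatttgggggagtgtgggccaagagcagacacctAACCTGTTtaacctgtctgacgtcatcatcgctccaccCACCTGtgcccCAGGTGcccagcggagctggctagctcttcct

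Esrp1, a splicing factor that sets epithelial isoforms (chromosome 4, 11331933 to 11386783, minus strand), stood at 37.2 and 37.6 CPM in the WSB/EiJ lines and at 127, 123, 101, 78.9 and 96.5 CPM in the C57BL/6J lines. The groups did not overlap, other strains ranged from 79.2 to 214 CPM, and the fold was -1.49 ± 0.19 (adjusted p = 2.14e-04). Epcam, the epithelial cell adhesion molecule (chromosome 17, 87635979 to 87651129, plus strand), stood at 171 and 157 CPM against 276, 272, 325, 280.2 and 269.9 CPM. Its C57BL/6J values were tight apart from line 4, and the fold was -0.79 ± 0.12 (adjusted p = 0.00109). Cldn6, a claudin of tight junctions in early embryonic epithelia (chromosome 17, 23679249 to 23682446, plus strand), stood at 54.8 and 60.6 CPM against 192, 166, 171, 102 and 126 CPM, a fold of -1.39 ± 0.22 (adjusted p = 0.00132).

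Cldn7, another claudin (chromosome 11, 69964779 to 69967885, plus strand), stood at 10.3 and 4.91 CPM against 23.6, 46.98, 29.6, 18.03 and 22.9 CPM, a fold of -1.90 ± 0.41 (adjusted p = 0.0126). Grhl2, a grainyhead transcription factor that drives epithelial genes (chromosome 15, 37233036 to 37363569, plus strand), stood at 8.86 and 6.64 CPM against 15.7, 27.99, 17.3, 10.97 and 13.2 CPM, and the fold was -1.14 ± 0.32 (adjusted p = 0.0454). Crb3, an apical polarity protein (chromosome 17, 57059105 to 57065918, plus strand), stood at 7.94 and 4.81 CPM against 12.4, 20.3, 17.6, 9.70 and 14.4 CPM, and the fold was -1.22 ± 0.34 (adjusted p = 0.0458). In each of these 3 genes both WSB/EiJ lines were below all C57BL/6J lines, with C57BL/6J line 5-1 nearest to them. Rab25 (chromosome 3, 88542029 to 88548300, minus strand) stood at 0.725 and 0.734 CPM against 3.73, 9.90, 4.35, 2.42 and 3.75 CPM, a fold of -2.72 ± 0.48 (adjusted p = 0.00329), and was not called when either WSB/EiJ line was left out. In these bulk libraries fewer cells of a type and less RNA per cell cannot be told apart.

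Against the 4 other strains, 7 of the 14 genes were lower and 0 higher: the fold was -1.90 for Esrp1, -0.68 for Epcam, -1.76 for Cldn6, -2.59 for Cldn7, -1.74 for Grhl2, -1.63 for Crb3 and -0.71 for Cdh1. Of all 18599 genes tested, 771 were called lower against the 4 strains. Both WSB/EiJ lines were the lowest of all 17 EpiSC libraries for Epcam, Cldn6, Cldn7, Grhl2 and Esrp1, a pattern seen for 337 of the 18599. Cdh1, the E-cadherin gene, stood at 532 and 466 against 506 to 790.0 CPM in C57BL/6J, with an uncalled fold of -0.41 ± 0.16. The keratin genes Krt8, Krt18 and Krt19 spread widely among C57BL/6J lines (13.1 to 288, 32.2 to 216 and 2.49 to 85.8 CPM), and none was called.

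Values of other cells and of sets of lines stand beside this result. The median of the 14 genes relative to the C57BL/6J mean was -0.78 in AC627 and -1.07 in AC635 on the log2 scale. In C57BL/6J it was 0.21 in line 1, 0.05 in line 2, 0.27 in line 4, -0.54 in line 5-1 and -0.09 in line 44. The fibroblast markers summed to 1073 CPM in AC627, 2588 CPM in AC635 and 3442 CPM in line 5-1, and to 1531 and 1503 CPM in lines 2 and 44. The 2 libraries with the highest fibroblast marker sums, 5-1 and AC635, had the lowest median of their strain. AC627 had a lower fibroblast marker sum than lines 2 and 44 and a lower epithelial median than both. Whether fibroblast content has a part in these medians was not tested. With the fibroblast level as a covariate 5 of the 14 fell, the median fold of the list was -0.92, and Grhl2 was no longer called. Without lines 2, 4 and 44, those with low Y-linked counts, 4 fell, without Grhl2 and Crb3. Leaving out AC627 gave 4 falls (Crb3 and Grhl2 lost), and leaving out AC635 gave 3 (Cldn7, Crb3 and Grhl2 lost). The mesenchymal list of 12 genes had 0 called in either direction and a median fold of 0.24, and Vim stood at 797 and 973 against 183 to 826 CPM.

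**Figure D3:**
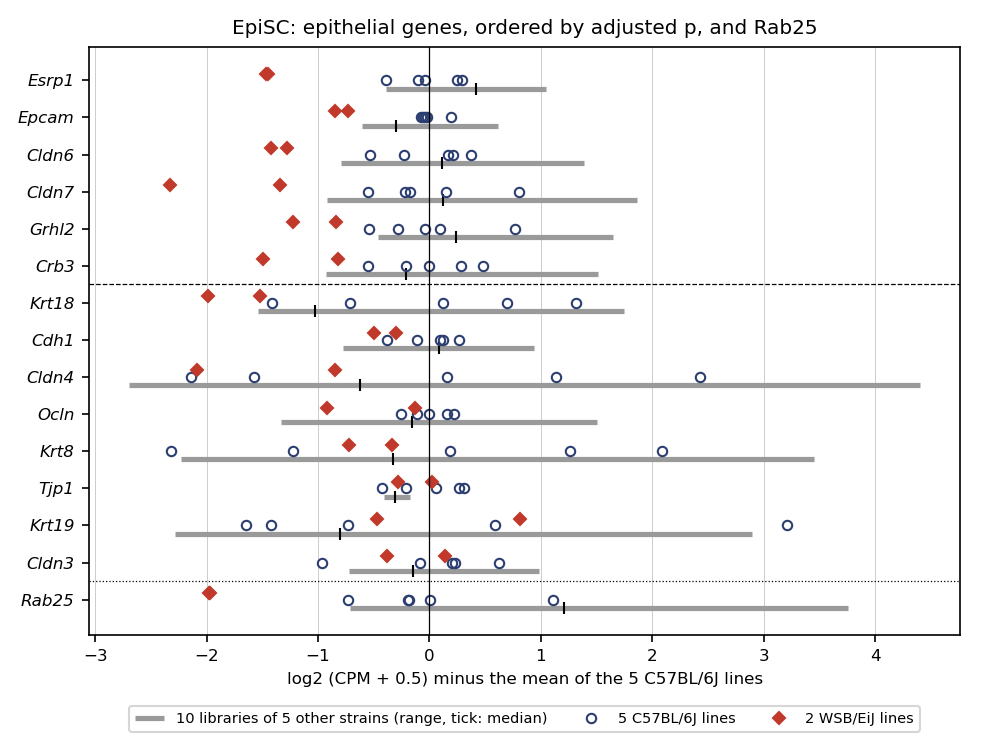
Level of each gene in each EpiSC library as log2 of CPM plus 0.5 minus the mean of the 5 C57BL/6J lines, for the 14 epithelial genes in order of adjusted p and for Rab25. Red diamonds are the 2 WSB/EiJ lines, open circles the 5 C57BL/6J lines and grey bars the range and median of 10 libraries of other strains; the 6 genes above the dashed line were called lower, and their WSB/EiJ points lie left of every C57BL/6J point.

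Of 12 core pluripotency genes listed, 0 rose, 2 fell and 10 were not called, with a median fold of 0.03. The counts of this list and of those below stand beside 3.41% of all genes tested called higher and 3.79% called lower. Sox2, the partner of Pou5f1 at pluripotency enhancers, stood at 10.9 and 25.8 CPM in WSB/EiJ and at 47.3, 94.7, 39.5, 113 and 75.5 CPM in C57BL/6J, and the 10 libraries of other strains ranged from 45.4 to 84.4 CPM. Both WSB/EiJ lines were the lowest of all 17, the fold was -2.01 ± 0.43 (adjusted p = 0.0128), and against the 4 strains it was -1.64 ± 0.40 (adjusted p = 0.0207). Without AC627 the Sox2 fold was no longer called. L1td1, an RNA-binding protein gene of pluripotent cells, stood at 529.6 and 602 against 712 to 1052 CPM, a fold of -0.65 ± 0.13 (adjusted p = 0.0057), and it too was not called without AC627.

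Among 13 primed epiblast genes, Sox11 alone was called, at 238 and 220.3 against 167 to 186 CPM (fold 0.38 ± 0.10, adjusted p = 0.0397), but not when either WSB/EiJ line or any 1 of C57BL/6J lines 1, 2 and 5-1 was left out. Among 11 tested genes of the primitive streak, Mixl1, a homeobox gene of nascent mesendoderm, rose. Mixl1 stood at 21.8 and 39.6 CPM against 17.2, 5.97, 10.1, 4.27 and 9.70 CPM, a fold of 1.70 ± 0.46 (adjusted p = 0.0402), and it was not called when AC627, AC635 or any 1 of C57BL/6J lines 2, 4 and 44 was left out. Brachyury, T, stood at 76.97 and 167 against 111 to 603 CPM with an uncalled fold of -1.31 ± 0.57. Foxa2, which marks anterior streak and endoderm, stood at 81.3 and 130.1 against 17.6 to 52.4 CPM, higher in both WSB/EiJ lines than in every C57BL/6J line but not called (fold 1.42 ± 0.45, adjusted p = 0.0856). Of 16 endoderm genes 0 rose and 1 of few counts, Cpn1, fell, and of 12 genes of extraembryonic endoderm 0 were called.

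Neuroectoderm genes moved in both directions, where 3.41% of all genes tested rose and 3.79% fell. Of 13 tested, 3 rose (Nefm, Nefl and Pou3f2), 3 fell (Olig1, Olig2 and Pax6) and 7 were not called, and the median fold was -0.13, also with Olig2 at its bound. Pax6, the eye and forebrain regulator, stood at 0.0764 and 0.2 CPM against 5.35, 1.21, 0.256, 3.98 and 1.58 CPM, a fold of -4.09 ± 1.04 (adjusted p = 0.0294). Pou3f2 held 31 counts against 18. Of 11 mesoderm genes 2 rose: Kdr, the VEGF receptor, at 6.87 and 8.75 against 1.79 to 4.37 CPM (fold 1.44 ± 0.34, adjusted p = 0.0212), and Hand1 with 32 against 4 counts. Pax6, Pou3f2 and Kdr were not called when either WSB/EiJ line was left out.

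Calls among genes of the pathways that hold EpiSC stand beside the 7.2% called among all genes tested, and with lists this short nothing is read from their number. None of 14 tested Nodal and activin ligands, receptors and Smads, none of 11 Nodal targets and inhibitors, and none of 13 FGF ligands and receptors passed the test. Of 15 targets of FGF and ERK signalling, Spred1, an inhibitor of that pathway, rose. Spred1 stood at 309 and 310.2 CPM against 195, 174, 186, 178 and 191 CPM, a fold of 0.74 ± 0.08 (adjusted p = 3.03e-05). Of 15 BMP genes, the target Id3 fell, at 9.16 and 8.48 against 16.02 to 23.2 CPM (fold -1.18 ± 0.20, adjusted p = 0.002). Of 13 Wnt targets, Tnfrsf19 fell (fold -0.76 ± 0.19, adjusted p = 0.031), but not when either WSB/EiJ line or any 1 of C57BL/6J lines 1 and 4 was left out.

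Of 17 tested genes of antigen presentation, 0 rose, 5 fell and 12 were not called, against 3.79% lower among all genes tested, and the median fold was -0.48. This list too was chosen with earlier results of these data known, so its counts are a description. The class I genes H2-D1 (28.1 and 23.2 against 33.9 to 67.6 CPM, fold -1.06) and H2-Q4 (7.52 and 4.21 against 16.4 to 22.5 CPM, fold -1.64) lie in the H2 complex, where haplotypes differ in sequence and gene content, so their values are uncertain. Tapbp, which loads peptides (fold -0.79), the trimming peptidase gene Erap1 (fold -1.16) and the immunoproteasome subunit gene Psmb10 (fold -0.50) fell as well. Against the 4 other strains the fold of Psmb10 was 0.47. Leaving out AC627 gave 1 fall and leaving out AC635 gave 0. Irf1, the transcription factor that drives many of these genes, stood at 21.95 and 23.5 CPM against 127, 44.7, 93.5, 73.2 and 74.9 CPM, a fold of -1.86 ± 0.31 (adjusted p = 0.00217). It was the 1 call among 21 interferon genes.

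Imprinted genes and genes of chromatin gave a few calls, where 7.2% of all genes tested were called. Of 29 tested imprinted genes 2 rose, 2 fell and 25 were not called, with a median fold of 0.22. Mest, expressed from the paternal allele in mesoderm, stood at 154 and 158 CPM against 32.5, 36.5, 77.8, 34.5 and 69.9 CPM, a fold of 1.64 ± 0.31 (adjusted p = 0.00545). Slc38a4, an amino acid transporter gene, stood at 147 and 126 CPM against 17.9, 29.5, 50.02, 35.8 and 50.97 CPM, a fold of 1.89 ± 0.27 (adjusted p = 8.91e-04). Snrpn (fold -0.38) and Zdbf2 (fold -0.87) fell. Mest was not called without AC635, and neither Snrpn nor Zdbf2 when either WSB/EiJ line was left out. Of 12 DNA methylation genes Tdg fell, a thymine glycosylase of active demethylation, at 60.4 and 54.9 against 96.7 to 144 CPM (fold -1.11 ± 0.13, adjusted p = 1.34e-04), and other strains ranged from 62.4 to 77.5 CPM.

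Of 20 genes of glycolysis and hypoxia 0 rose and 3 fell (Gpi1 -0.60, Gapdh -0.43, Pgk1 -0.44), where 3.79% of all genes tested fell. Of the 20, 1 had a fold above 0, and the median was -0.23. Without lines 2, 4 and 44 of C57BL/6J 1 fell and the median was -0.02. Of 21 genes of the nuclear respiratory chain 3 fell (Ndufs4 -0.46, Sdha -0.30, Cox7a2l -0.43), and of 12 mitochondrial genes 0 were called. Of 18 cell cycle genes Ccnb1 (-0.51) and Top2a (-0.36) fell. Of 14 immediate early and heat shock genes Jun (103 and 72.98 against 23.6 to 44.9 CPM, fold 1.35) and Hspb1 (22.5 and 23.8 against 3.31 to 11.3 CPM, fold 1.68) rose. Of 16 p53 targets Tnfrsf10b rose (0.69) and Zmat3 fell (-0.60), of 20 glutathione genes Gstp2 rose on few counts, and of 5 genes of X inactivation Rlim fell (-0.57). Lists of ATF4 targets (14) and cholesterol genes (17) had 0 calls, as had the 4 tested Y-linked genes and the 1 tested gene of the 2-cell state. Gapdh, Ndufs4, Cox7a2l, Top2a and Rlim were not called when either WSB/EiJ line was left out, and neither Gpi1, Sdha and Jun without AC627 nor Pgk1, Ccnb1, Zmat3 and Gstp2 without AC635.

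Ribosomal protein genes and annotated copies of them were among the calls. Of the 6 most abundant called genes with a gene symbol and at least a 2-fold difference, 4 were ribosomal protein genes that fell: Rpl12 (393 and 365 against 847 to 989 CPM), Rps18 (430.4 and 419.9 against 789.9 to 924 CPM), Rpl29 (90.3 and 109.9 against 129 to 603 CPM) and Rpl35a (136 and 138 against 369.6 to 435 CPM). Rpl29 was not called when either WSB/EiJ line was left out. Against the 4 other strains Rpl12 was called lower in WSB/EiJ (fold -1.07). Rps18 (-0.02), Rpl35a (-0.10) and Rpl29 (-1.03) were not called against those strains. Hmgn2, a nucleosome-binding protein gene, also fell (fold -1.07). Of 78 ribosomal protein genes tested, 8 were called lower and 1 higher, which is 11.5% against 7.2% of all genes tested. The largest fold of any gene with at least 8 CPM, chosen after its values were seen, was that of the processed pseudogene Rps2-ps13, at 568 and 492 CPM in WSB/EiJ, 0.0743 to 0.312 CPM in C57BL/6J and 0.0597 to 443 CPM in other strains. Its parent Rps2 stood at 909.6 and 888 CPM against 1575 to 1944 CPM, a fold of -0.95 ± 0.12 (adjusted p = 2.62e-04). The sum of Rps2 and Rps2-ps13 was 1477 and 1379.9 CPM in WSB/EiJ against 1575 to 1944 CPM in C57BL/6J. For Rps24 and Rps24-ps3 the fold was -0.70 and 7.30, and the sum was 964 and 875 CPM against 1065 to 1229.8 CPM. In both pairs the sums of WSB/EiJ lay below those of C57BL/6J. In another pair, Rps26-ps1 stood at 147 and 148 against 0.452 to 1.79 CPM (fold 6.92), Rps26 had a fold of -0.58 that was not called (adjusted p = 0.107), and the sums of 529 and 598 CPM overlapped the 395 to 719 CPM of C57BL/6J. Annotated pseudogenes were called in 28 of 220 cases (21 higher, 7 lower), which is 12.7% against the same 7.2%. Entries with clone names made up 19.02% of genes tested, 25.2% of calls and 111 of the 177 calls of at least 16-fold. Reads that a copy takes from its parent gene cannot be told apart from expression of the copy.

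Some called genes were neighbours. Of 14803 tested genes with a position, 986 (6.66%) were called. A called gene was the next tested neighbour of 203 of these 986 (20.6%) and of 1679 of the 13817 that were not called (12.2%), and in 143 of the 203 cases both moved the same way. The windows below were chosen after their values were seen, for holding many calls where 7.2% of all genes tested were called, so nothing is read from their counts. On chromosome 7 from 118104372 to 118737024, 7 of 13 tested genes were called. Tmc5, Gde1 (109.7 and 108 against 31.2 to 39.9 CPM, fold 1.67), Tmc7 (1.31), Coq7 (0.62) and Ccp110 (0.64) rose, and Rps15a (-0.31) and Arl6ip1 (-0.51) fell. On chromosome 13 from 67173182 to 67687071, 6 of 22 were called in a cluster of zinc finger genes: Zfp738, Zfp429 (-2.71), Zfp874a (-1.94), Zfp458 (-1.30) and Rsl1 (-1.001) fell and Zfp456 (1.92) rose. Against the 4 other strains Zfp738 (-4.12) and Zfp429 (-2.67) were called lower. Zfp874a (-0.48), Zfp458 (-0.34), Rsl1 (0.17) and Zfp456 (0.88) were not called against those strains. On chromosome 17 from 35262730 to 36121465, in the H2 complex, 9 of 37 were called, 3 higher and 6 lower. In the clustered protocadherins 7 of 47 genes tested within 1 Mb were called, all higher, and as these genes share exons and sequence they are uncertain.

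Chromosome 11 had the highest median in both WSB/EiJ lines. Of 1224 genes tested there, 64.7% had a fold above 0, where the other autosomes had 42.9% to 51.3%, and 49 were called higher and 23 lower. The median of its genes, relative to the C57BL/6J mean and to all autosomes of the library, was 0.08 in AC627 and 0.13 in AC635 on the log2 scale. C57BL/6J lines lay between -0.03 and 0.01 and other strains between 0.00 and 0.04. The other autosomes of the WSB/EiJ lines lay between -0.06 and 0.04. Along the chromosome, the median fold was 0.06, 0.08, 0.09 and 0.16 in 4 consecutive blocks of 306 genes. In the DE libraries of the same lines the shift was 0.05 in AC627 and 0.09 in AC635, with C57BL/6J between -0.02 and 0.06, so the groups overlapped there. These medians are a description and carry no test.

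**Figure D4:**
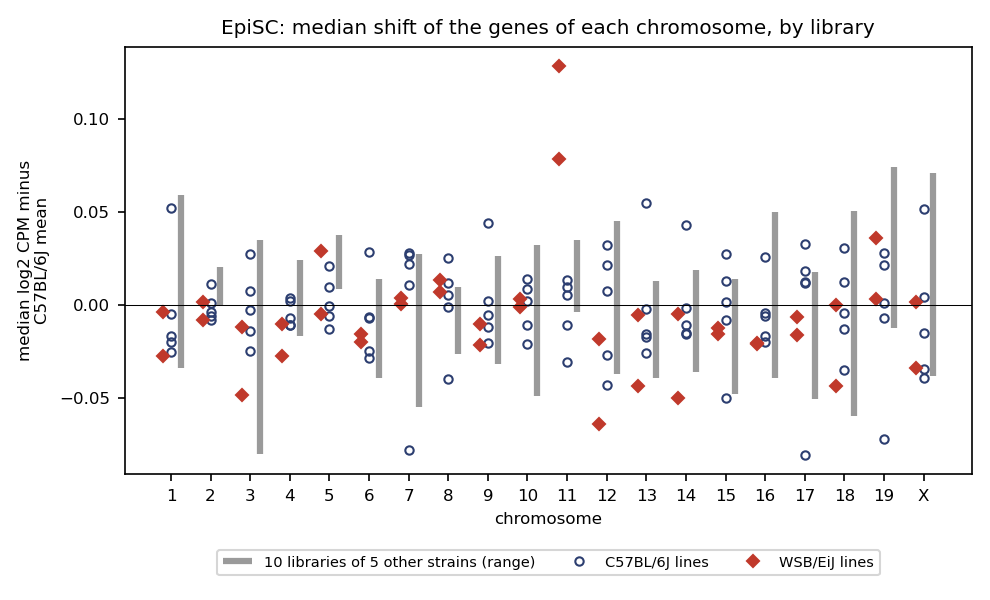
Median over the genes of each chromosome of log2 of CPM plus 0.5 minus the C57BL/6J mean, centred on all autosomes of the library, for genes with at least 5 CPM. Red diamonds are the 2 WSB/EiJ lines, open circles the 5 C57BL/6J lines and grey bars the range of 10 libraries of other strains; on chromosome 11 both WSB/EiJ points, 0.08 and 0.13, lie above all other libraries.

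The 2 WSB/EiJ lines differed from each other by more than 2-fold in 213 of 10113 genes with enough counts to compare, and 8 of these were among the calls. The widest gaps were those of Gpr149 (1.15 and 8.95 CPM), Igfbp5 (29.9 and 149 CPM), an insulin-like growth factor binding protein gene of fibroblasts among other cells, Wnt8a (3.17 and 14.7 CPM), a streak Wnt ligand, and Pdgfb (22.5 and 5.31 CPM). C57BL/6J lines ranged from 23.1 to 152 CPM for Igfbp5 and from 0.84 to 69.4 CPM for Wnt8a. None of the 4 was called.

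Most strain differences of EpiSC were not called in endoderm of the same lines. A missing call in DE is not itself a difference between the cell types. The endoderm was made with activin A and the GSK3 inhibitor CHIR, then with activin A and a BMP receptor inhibitor, and its libraries came from a low-input kit where EpiSC libraries came from a stranded polyA kit, so kit and cell type cannot be told apart. In DE, WSB/EiJ differed from C57BL/6J in 438 of 20599 genes (2.13%), 231 higher and 207 lower. Without AC627 this count was 125, and without AC635 it was 162. Of 1252 EpiSC calls tested in DE, 206 were called there too (16.5%, and 49.4% of the 417 DE calls tested in EpiSC), 197 in the same direction and 9 in the opposite one. Cwc22 had a fold of 4.18 in EpiSC and 3.06 in DE, Zfp738 -4.63 and -4.04, Dynlt1a -5.50 and -5.76, and Tnk1 -3.11 and -2.58.

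The difference of the strain effect between DE and EpiSC was called for 165 of 22030 genes (0.749%), 62 with a higher and 103 with a lower fold in DE. Among the 1339 EpiSC calls this difference was called for 60. With the cell line as a replicate block, which pairs the EpiSC and DE libraries of a line, 108 genes were called, 95 of them among the 165. Without AC627 the count was 42, and without AC635 it was 40. Cldn6 and Esrp1 were the epithelial genes among the 165. Cldn6 in DE stood at 1099 and 1204 CPM in WSB/EiJ and at 494 to 832 CPM in C57BL/6J, a fold of 0.84 ± 0.20 (adjusted p = 0.0415) against -1.39 in EpiSC, and the difference was 2.23 ± 0.30 (adjusted p = 1.02e-04). Esrp1 in DE stood at 142 and 129.9 CPM against 95.97 to 149 CPM, and the difference of its folds was 1.66 ± 0.30 (adjusted p = 0.00284), which was not called when either WSB/EiJ line was left out. Epcam had a fold of -0.79 in EpiSC and 0.12 in DE, and the difference was not called. For the strain effect within DE, 2 of the 14 epithelial genes were called: Cldn6 higher, and Krt18 lower at 422 and 598 CPM against 1047 to 2114 CPM (fold -1.43 ± 0.35, adjusted p = 0.047), and the difference of Krt18 from its EpiSC fold of -2.06 was not called.

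Several genes differed far more between the strains in DE than in EpiSC. Tmem14c, a mitochondrial transporter of haem synthesis, stood in EpiSC at 36.5 and 37.5 against 52.9 to 62.1 CPM and in DE at 0.852 and 2.17 CPM against 82.6 to 184 CPM, lower in WSB/EiJ in both, and the difference of the folds was -5.69 ± 0.47 (adjusted p = 2.13e-08). Fhl3, a LIM domain protein gene, stood in DE at 41.5 and 29.8 CPM against 0.691 to 1.75 CPM, with a fold of 4.81 in DE and 0.96 in EpiSC (difference 3.86 ± 0.43, adjusted p = 6.45e-06). Tdgf1, the Nodal co-receptor Cripto, stood in EpiSC at 723 and 719.8 against 507 to 1070.0 CPM and in DE at 20.02 and 17.9 CPM against 116 to 178 CPM (difference -2.86 ± 0.41, adjusted p = 1.91e-04). Lef1, a transcription factor of Wnt signalling, stood in DE at 94.9 and 81.2 CPM against 4.81 to 10.02 CPM, and in EpiSC its fold was 0.10 (difference 3.34 ± 0.52, adjusted p = 6.36e-04). Without AC627 the Lef1 difference was not called.

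Ada, the adenosine deaminase gene, was lower in WSB/EiJ EpiSC and higher in WSB/EiJ DE, with a fold of -1.32 in EpiSC and 3.15 in DE (difference 4.45 ± 0.74, adjusted p = 0.00153). Nsg1, a neuronal vesicle protein gene, had 0.48 and 4.13, and the ER chaperone gene Clgn -1.76 and 2.27. Clgn is on chromosome 8, whose median was 0.40 in the C57BL/6J DE library of line 5-1. In the DE libraries of C57BL/6J lines 1, 2, 4 and 44 it was -0.12 to -0.05. Pilra, an immune receptor gene, Irgm2, an interferon-induced GTPase gene, and Gprc5a, an orphan receptor gene, had DE folds of -6.83, -6.17 and -6.35, on DE levels of 54.7 to 94.3, 1.79 to 5.09 and 14.3 to 70.6 CPM in C57BL/6J. Slc12a5 was the ranked EpiSC gene with the largest called difference, 3.15 in EpiSC and -1.51 in DE (difference -4.66 ± 0.69, adjusted p = 3.25e-04), and it was not called without AC627. The differences of Ada, Clgn, Pilra, Irgm2 and Gprc5a were not called when either WSB/EiJ line was left out, and that of Irgm2 not with the cell line as replicate block. The EpiSC call of Ada (adjusted p = 0.0424) was lost when any 1 of C57BL/6J lines 1, 2, 4 and 44 was left out.

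**Figure D5:**
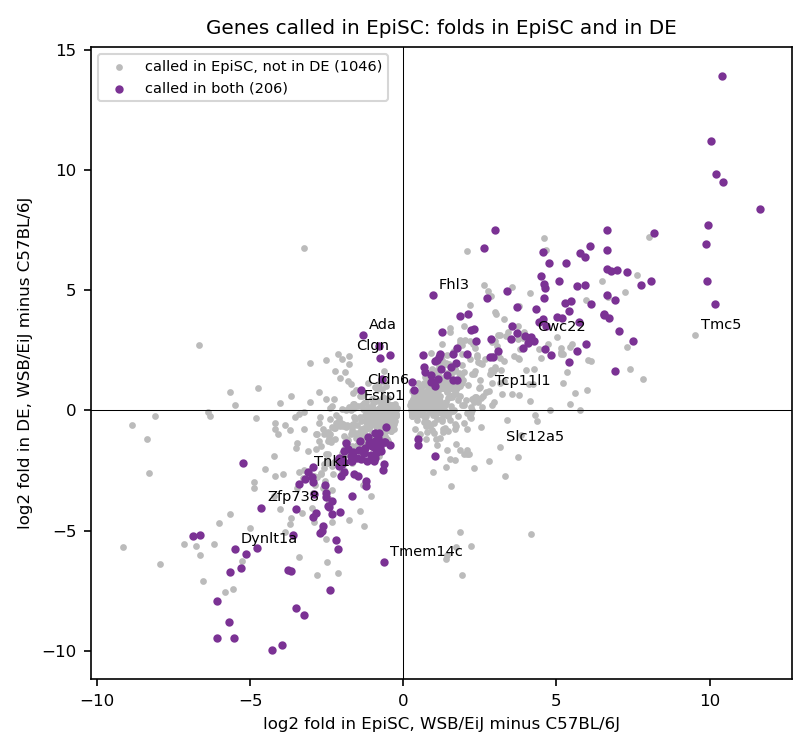
Log2 fold of WSB/EiJ minus C57BL/6J in EpiSC (horizontal) and in DE (vertical) for the 1252 genes called in EpiSC and tested in DE. Purple points are the 206 genes also called in DE, grey points the others; Zfp738, Cwc22 and Dynlt1a lie near the diagonal, while Slc12a5, Ada, Cldn6 and Clgn lie on opposite sides of 0 in the 2 cell types.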

How the data were processed

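The authors deposited raw read counts per gene, 1 table for EpiSC and 1 for DE, with 53655 genes. Per the submitters' processing notes the tools were STAR 2.4, HTSeq 0.6.1 and DESeq2 with build mm10; which gene models were counted, whether strand was used and how multiply matching reads were handled: not given in the sources used here. From these counts, a gene was kept if 2 or more libraries held 10 or more counts, libraries were scaled by TMM, and edgeR 4.0.16 (R 4.3.3) quasi-likelihood tests with Benjamini-Hochberg adjustment at 0.05 were run. All 17 EpiSC libraries entered 1 fit and shared 1 estimate of the spread. The DE comparison was added after the files were seen. Positions are from GENCODE M21 (GRCm38, mm10), matched by symbol.

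The scripts were tested on simulated data. Lines of 1 strain differed by far more than counting noise (chi-square per degree of freedom 27.7 between WSB/EiJ lines and 29.1 to 95.2 between C57BL/6J lines), so none was counted as a repeat. P-values measure the spread between lines. EpiSC and DE libraries of the same name come from the same line, which pairs them; deviations from the group mean correlated at 0.107 for WSB/EiJ and at 0.0192 to 0.139 for C57BL/6J.

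The members and the 33 gene lists were chosen with earlier results of these data known. Named genes are list members and, passing over predicted and pseudogene names, the 10 largest folds in each direction with at least 8 CPM and no overlap, the 6 largest in each direction against 4 strains with WSB/EiJ outside all other libraries and at least 8 CPM, the 6 most abundant calls of at least 2-fold with no overlap, the 4 largest called differences between cell types in each direction with a mean of at least 8 CPM in the highest of the 4 groups, and the 4 largest gaps between the WSB/EiJ lines with at least 8 CPM in 1 of them. Clone names were passed over as well, a choice made after the ranking was seen. The pseudogenes, their parent genes and the genes named by genome position were also chosen after their values were seen. Alternatives were DESeq2 1.42.0, another scaling, other count filters, fewer libraries, the replicate block and covariates for fibroblast and Y-linked RNA. Of the ranked genes, 1 is not reported here.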

Additional observations from a re-analysis of the deposited data

Results flagged for a closer look

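In 2 of the 76 named genes called in EpiSC, 1 C57BL/6J line lay far from the other lines. The cutoff flags about 1 in 20 by chance among genes that were not selected. These 76 were selected by their calls, so that rate need not hold and nothing is read from the count. Epcam was 325 CPM in C57BL/6J line 4, and the other lines lay between 269.9 and 280.2 CPM. Olig1 was 3.72 CPM in C57BL/6J line 44, and the other lines lay between 33.5 and 51.0 CPM.

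For 17 named genes the WSB/EiJ effect differed between DE and EpiSC by the interaction test of edgeR, and the 2 cell types also differ in library kit. The log2 fold was higher in DE for Ada (4.45), Clgn (4.07), Fhl3 (3.86), Nsg1 (3.65), Lef1 (3.34), Cldn6 (2.23), Esrp1 (1.66) and the mitotic checkpoint gene Bub1 (1.18). It was lower in DE for the mitochondrial gene mt-Nd3 (-6.68), Pilra (-6.42), Irgm2 (-6.17), Tmem14c (-5.69), Gprc5a (-5.59), Slc12a5 (-4.66), Tdgf1 (-2.86), Tcp11l1 (-1.98) and Cwc22 (-1.10). Without AC627 12 of the 17 were not called, and without AC635 10 were not.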

How the results depend on the processing

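Leaving out 1 line at a time gave 524 to 1455 calls for WSB/EiJ against C57BL/6J in EpiSC, 589 to 1021 against the 4 strains (only WSB/EiJ lines left out), 125 to 557 in DE and 40 to 215 for the difference between DE and EpiSC. The lowest counts came from leaving out a WSB/EiJ line, which leaves 1 library assumed to vary like the other groups. A fit of the 7 libraries alone gave 524 calls in EpiSC, with fewer libraries to estimate the spread. With DESeq2 the difference between DE and EpiSC had 350 calls and the DE comparison 957, and with no count filter they had 654 and 1241; the cause was not tested. With the cell line as a replicate block, the pairing of EpiSC and DE libraries, the difference had 108 calls, and Bub1, Cwc22, Irgm2 and Tcp11l1 were no longer called. Of 76 named genes called in EpiSC, 76 kept the call with RLE scaling, 74 with DESeq2, 74 with the fibroblast covariate, 60 with the Y-linked covariate, 41 with the 7 libraries alone, 43 without AC627 and 41 without AC635, and 0 reversed under these settings. Depth limits genes of few counts, such as Hand1 and Pou3f2.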
